A study of Mus musculus with 45 samples.

Results

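The genes described here are 9 of the 55385 genes in the expression files, all of which carry water, ions, peptides, sugars or fatty acids and several of which are textbook genes of the trophectoderm, the outer epithelium of the blastocyst. They are the aquaporins *Aqp3*, *Aqp8* and *Aqp9*, the sodium pump subunit *Atp1b1*, the peptide transporter *Slc15a2*, the glucose transporters *Slc2a1* and *Slc2a3*, and the fatty acid-binding proteins *Fabp3* and *Fabp5*. They were chosen by symbol, with their response in the inner cell mass in view, so that contrast is given as a description. Its p-values are not printed, and a member named as called there is only placed by the rule used for all genes. The treatment responses of *Slc15a2*, *Aqp3* and *Fabp3* were also known when the list was made, and no p-value is given for these 3 genes anywhere.

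The study asked what the transcription factor GABPA does in the early mouse embryo by degrading it with dTAG13, a small molecule that sends FKBP-tagged proteins to the proteasome. All samples, controls included, carried the tagged allele on both chromosomes (Gabpa-dTAG/dTAG). Embryos came from in vitro fertilisation with knock-in mice that had been backcrossed to C57BL/6J, and the cells were tagged ES-E14 embryonic stem cells, picked as single clones and kept with 2i/LIF (2iES cells). Poly(A) RNA was sequenced in 18 libraries, and the control libraries had received the solvent DMSO.

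Late two-cell embryos were treated with 1 μM dTAG13 from 6 h post fertilisation (hpf) and collected at 30 hpf, with 3 DMSO and 3 dTAG13 libraries. Morulae were treated with 1 μM from the four-cell stage at 42 hpf, with 2 libraries a group. The E4.5 ICM libraries, again 2 a group and 1 μM, hold inner cell mass collected at 100 hpf after treatment from the early blastocyst, and are a mixture of epiblast and primitive endoderm because the trophectoderm had been removed by immunosurgery. 2iES cells received 0.5 μM for 24 h, with 2 libraries a group. No library is of trophectoderm, so the label of these genes as trophectoderm transport describes their known role and not the tissue measured.

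The blastocyst forms its cavity when the outer cells pump sodium inward and water follows through aquaporins. The sodium pump, Na+/K+-ATPase, sets up that gradient from the basolateral membrane, and sodium-hydrogen exchangers of the Slc9a family let sodium in from outside. From the morula on, embryos also take up more glucose through facilitative GLUT transporters, and they move peptides and fatty acids with dedicated carriers.

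Library totals ran from 9457933 to 27660132 expected counts, lowest in the morula (9457933 to 12382705). The E4.5 ICM replicates were far closer to each other than those of the other stages. Their counts differed by a chi-square of 1.91 (DMSO) and 1.94 (dTAG13) per degree of freedom, against 4.77 to 63.8 elsewhere, so they still differed by more than counting noise. The study describes its RNA replicates as biological, and the labels do not say whether they were separate embryo pools or cultures, so p-values measure the spread between these samples. *Gabpa* RNA itself was higher with dTAG13 at each stage (in 2iES cells 11.3 and 11.1 TPM against 7.37 and 5.76), and since dTAG13 acts on the protein this RNA is no check of the degradation.

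Levels are given below as TPM (the authors' level per transcript length, scaled to one sum in every library, which can be set beside another gene's), and differences as log2 fold changes of counts, dTAG13 over DMSO, with their standard error (SE). A gene counts as called when its adjusted p is under 0.05, its fold change is at least 2 and its mean FPKM is at least 1 in a group.

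In the E4.5 ICM, 4 of the 9 members were called, *Slc15a2* and *Fabp3* higher and *Slc2a1* and *Aqp3* lower, where 25.2% of all 15840 tested genes were called, 12.1% higher and 13.2% lower. The members were chosen on this contrast, so nothing is read from that count. In 2iES cells 3 of 8 tested members were called, *Slc15a2* and *Fabp3* higher and *Fabp5* lower, against 28.0% of 15511 genes, 12.4% higher and 15.6% lower. The responses of *Slc15a2* and *Fabp3* were known when the list was made, so nothing is read from this count either. At the late two-cell stage 0 of 7 tested members were called by edgeR (*Aqp3* and *Aqp8* had too few counts), where 4.11% of 17421 genes were. In the morula it was 0 of 7 (without *Aqp8* and *Slc15a2*) against 0.351% of 13667. Among the 5 members with printed p-values at each of these 2 stages none had an unadjusted p under 0.05, and DESeq2 called none either. The median log2 fold change of the tested members was 0.55 in the E4.5 ICM and -0.08 in 2iES cells, and over all tested genes it was 0.01 and 0.03.

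**Figure D1:**
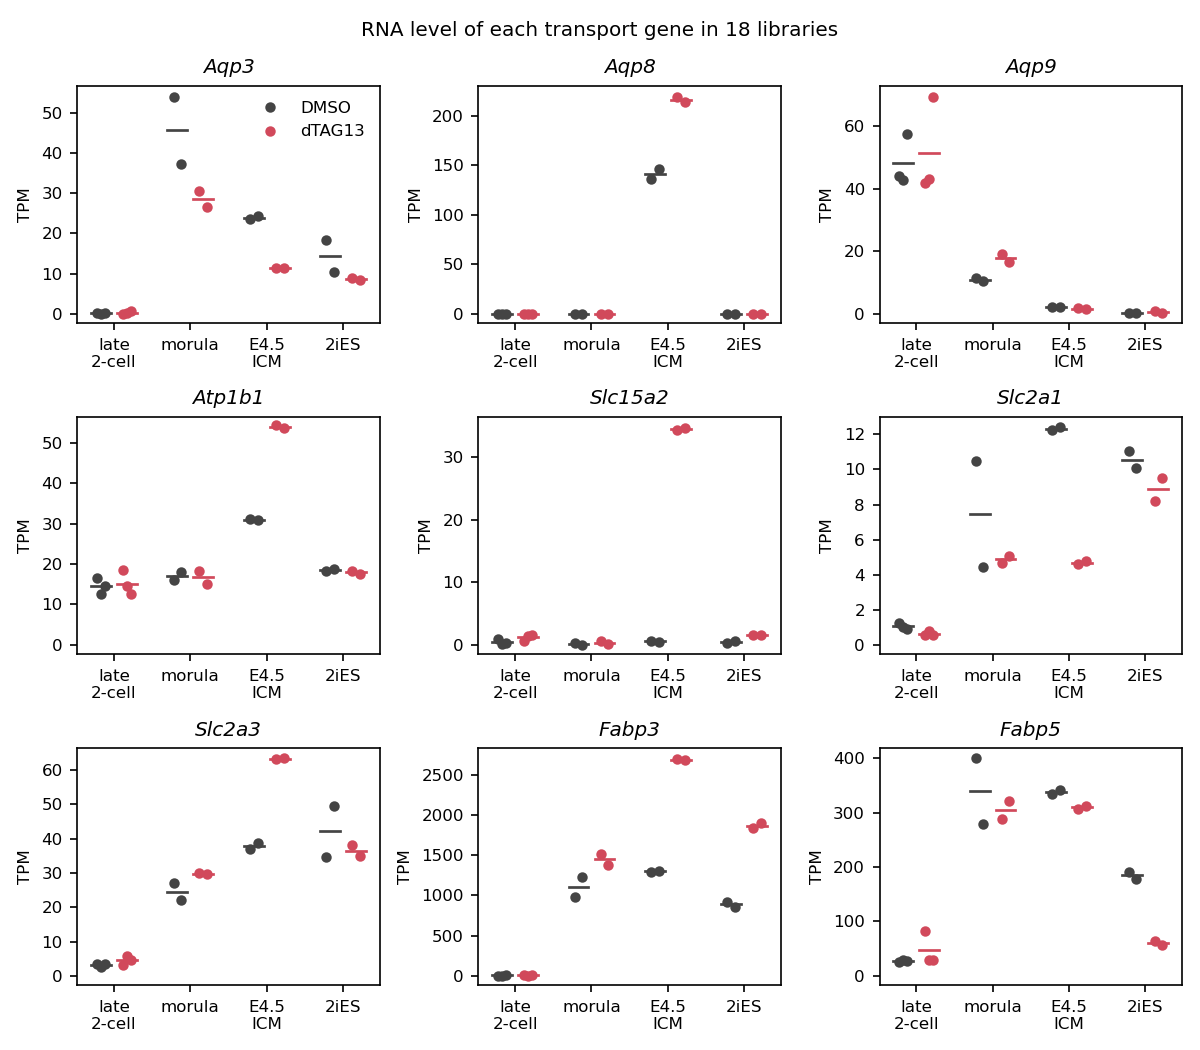
RNA level (TPM, linear axes that differ between panels) of the 9 genes in each of the 18 libraries, by stage, with DMSO in grey and dTAG13 in red; horizontal bars are group means. *Slc15a2* stands at 34.4 and 34.7 TPM in the dTAG13 E4.5 ICM libraries and at 1.59 or less in every other library.

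The promoters of the 4 members called in the E4.5 ICM are shown because that of *Slc15a2*, the gene with the largest difference, was poorer in G, C and CG dinucleotides than the other three. RefSeq promoter windows (build GRCm38.p6, 300 bases that span the start and lie mostly before it, written in the direction of transcription) were held for 7 of the 9 genes, not for *Slc2a3* and *Fabp5*. Capitals mark CG dinucleotides, the sites of DNA methylation. *Slc15a2* lies on the minus strand (chr16:36784913-36785212), *Fabp3* on the plus strand (chr4:130308488-130308787), *Slc2a1* on the plus strand (chr4:119108495-119108794) and *Aqp3* on the minus strand (chr4:41098134-41098433).
Slc15a2: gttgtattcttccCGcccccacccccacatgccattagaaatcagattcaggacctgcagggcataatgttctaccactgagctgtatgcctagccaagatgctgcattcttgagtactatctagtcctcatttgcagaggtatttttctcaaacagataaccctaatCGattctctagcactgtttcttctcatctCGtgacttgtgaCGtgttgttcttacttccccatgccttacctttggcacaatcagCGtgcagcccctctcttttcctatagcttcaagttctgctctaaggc
Fabp3: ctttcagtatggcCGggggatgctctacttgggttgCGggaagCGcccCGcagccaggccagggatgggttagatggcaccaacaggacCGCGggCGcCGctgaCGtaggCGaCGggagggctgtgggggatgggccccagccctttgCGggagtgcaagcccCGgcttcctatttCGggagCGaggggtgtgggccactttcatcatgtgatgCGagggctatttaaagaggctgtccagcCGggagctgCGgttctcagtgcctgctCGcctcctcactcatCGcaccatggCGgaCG
Slc2a1: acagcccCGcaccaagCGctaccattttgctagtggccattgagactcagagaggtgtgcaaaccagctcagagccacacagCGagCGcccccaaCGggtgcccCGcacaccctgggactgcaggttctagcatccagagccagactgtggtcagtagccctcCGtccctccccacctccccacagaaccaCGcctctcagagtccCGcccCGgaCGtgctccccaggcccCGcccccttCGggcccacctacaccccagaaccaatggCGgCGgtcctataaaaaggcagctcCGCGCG
Aqp3: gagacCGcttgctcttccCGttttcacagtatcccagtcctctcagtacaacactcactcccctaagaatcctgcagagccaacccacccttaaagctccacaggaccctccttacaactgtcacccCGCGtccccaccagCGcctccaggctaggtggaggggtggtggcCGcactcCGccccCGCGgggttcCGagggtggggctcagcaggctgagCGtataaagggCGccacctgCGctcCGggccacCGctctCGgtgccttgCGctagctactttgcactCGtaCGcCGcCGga
The *Slc15a2* window held 5 CG dinucleotides and 46.3% G or C, the *Fabp3* window 22 and 65.0%, the *Slc2a1* window 18 and 65.3%, and the *Aqp3* window 21 and 64.0%. *Atp1b1* had 31, *Aqp8* had 6, and the pair of *Aqp9* windows had 1 and 4. Over all 32851 promoter windows of this length the median was 7 CG dinucleotides and 52.7% G or C. The ETS core CCGGAA, which GABPA recognises, was sought on both strands and was found in none of these 8 member windows, against 14.9% of all windows. The TEAD motif GGAATG, also sought on both strands, was found in 1 of them, that of *Aqp8* at position -221 from the start, against 14.7% of all windows. A missing match says only that these letters are not in this window.

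Between stages in the DMSO libraries, 6 of 9 members were called from the late two-cell stage to the morula, 5 higher (*Aqp3*, *Slc2a1*, *Slc2a3*, *Fabp3* and *Fabp5*) and 1 lower (*Aqp9*). Of all 19830 genes 50.3% were, 22.6% higher and 27.7% lower. From the morula to the E4.5 ICM 3 were called, *Aqp8* higher and *Aqp9* and *Aqp3* lower, against 29.2% of genes (16.0% higher and 13.2% lower). From the ICM to 2iES cells 2 were called, *Aqp8* and *Aqp9*, both lower, against 24.7% (12.0% higher and 12.7% lower). Stages were separate preparations, so stage and preparation cannot be told apart. The DMSO ICM libraries also entered the contrast with which the members were chosen. Steps to or from the ICM are therefore descriptions, and their p-values are not printed.

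Aquaporins are membrane channels, and AQP3 and AQP9 also pass glycerol. On GRCm38, *Aqp3* (ENSMUSG00000028435.8) lies on the minus strand of chromosome 4 from 41092722 to 41098183, *Aqp8* (ENSMUSG00000030762.11) on chromosome 7, plus strand, from 123462291 to 123468004, and *Aqp9* (ENSMUSG00000032204.13) on the minus strand of chromosome 9 from 71110659 to 71168682. Which of the 3 genes stood highest differed between stages in the DMSO libraries, though their presence overlapped. *Aqp3* still averaged 23.9 TPM in the E4.5 ICM, and *Aqp9* 10.9 TPM in the morula. *Aqp9* led the 12 measured aquaporins at the late two-cell stage, *Aqp3* in the morula and in 2iES cells, and *Aqp8* in the E4.5 ICM.

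*Aqp9* stood at 44.0, 42.7 and 57.3 TPM in the DMSO late two-cell libraries. It was at 11.3 and 10.5 TPM in the morula, at 2.05 and 2.20 in the E4.5 ICM and at 0.22 and 0.36 in 2iES cells. The 4 stages did not overlap, so *Aqp9* fell at every step in this order. On counts each step passed the call rule. The log2 values were -1.53 (SE 0.21, adjusted p 3.41e-05, edgeR) from the two-cell stage to the morula, -2.46 (SE 0.24) to the ICM and -2.24 (SE 0.28) to 2iES cells.

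*Aqp8* was without a count in all 6 late two-cell libraries and had 0, 4, 1 and 0 counts in the morula libraries. In the DMSO E4.5 ICM it reached 136 and 146 TPM (4043 and 3968 counts), and in the DMSO 2iES libraries it was back at 0 and 2 counts. The ICM libraries therefore stood apart from all others. Against the late two-cell stage this was at least 1320-fold higher in CPM (counts scaled to the library total), taking 3 counts in a library as the limit that a count of 0 allows. Against the morula and 2iES cells *Aqp8* passed the call rule, with no fold given because the low group held only 0 to 4 counts.

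*Aqp3* was at 0 to 0.29 TPM in the DMSO late two-cell libraries, from 0 to 11 counts. It was at 54.0 and 37.4 TPM in the morula, 23.5 and 24.4 in the E4.5 ICM and 18.3 and 10.5 in 2iES cells. The morula held its highest libraries, those of the ICM were lower than both, and 2iES libraries were lower still in TPM. On counts the step from the morula to the ICM was -1.33 (log2, SE 0.36) and that from the ICM to 2iES cells -0.11 (SE 0.35), which was not called.

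With dTAG13, *Aqp3* was below the DMSO libraries wherever it was expressed. In the morula it was at 30.6 and 26.6 TPM, a log2 fold change of -0.68 (SE 0.22). In the E4.5 ICM it was at 11.3 and 11.5 TPM, a log2 fold change of -1.09 (SE 0.07), and in 2iES cells at 8.84 and 8.41 TPM (-0.65, SE 0.26). The groups did not overlap at any of these 3 stages, and the ICM value alone passed the call rule. In 2iES cells the DMSO pair lay far apart, and the log2 value was -0.23 without DMSO replicate 1 and -1.01 without DMSO replicate 2. The morula value was -0.37 without DMSO replicate 1 and -0.93 without DMSO replicate 2.

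*Aqp8* was at 219 and 214 TPM in the dTAG13 ICM libraries, both above the DMSO libraries, a log2 fold change of 0.55 (SE 0.03). It remained at 0 to 2 counts in the dTAG13 libraries of all other stages. *Aqp9* in the late two-cell embryo was at 41.8, 43.1 and 69.3 TPM with dTAG13, overlapping the DMSO libraries (-0.19, SE 0.18, adjusted p 0.615, edgeR).

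In the morula *Aqp9* was higher with dTAG13, at 19.2 and 16.6 TPM, and the groups did not overlap. The count-based difference was 0.44 (log2, SE 0.22, 95% interval -0.02 to 0.90), which did not pass (adjusted p 0.397, edgeR). It was lower in the E4.5 ICM, at 1.81 and 1.52 TPM. There the log2 fold change on counts was -0.84 (SE 0.19), against -0.33 for the ratio of mean TPM. The authors' mean transcript length for *Aqp9*, which enters the TPM, was 2646 to 2659 bases in DMSO and 1927 to 2078 with dTAG13. In 2iES cells it stayed under 1 TPM in each library, and its difference could not be told from 0 (95% interval -0.80 to 2.43 log2, and -0.73 without dTAG13 replicate 1).

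**Figure D2:**
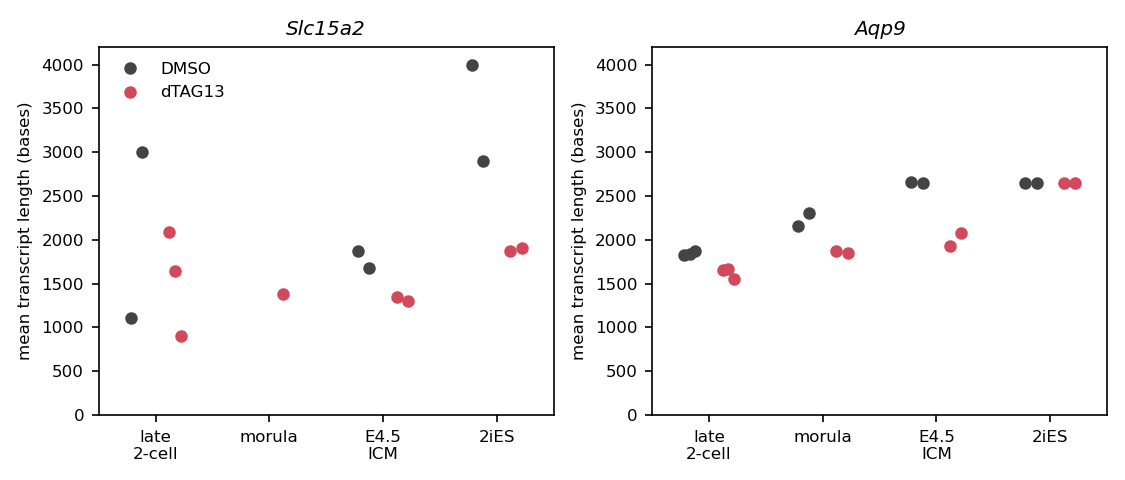
Mean transcript length (bases, weighted by the authors' isoform estimates) of *Slc15a2* and *Aqp9* in each library with at least 10 counts of the gene, DMSO in grey and dTAG13 in red. Both genes' dTAG13 libraries in the E4.5 ICM lie below the DMSO libraries, for *Slc15a2* at 1307 and 1341 bases.

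*Atp1b1* encodes the beta subunit that carries the catalytic sodium pump subunit to the membrane. It lies on the minus strand of chromosome 1 from 164437109 to 164458355 (ENSMUSG00000026576.12). Of its exonic bases, 18.7% are overlapped by *Nme7* on the other strand, and the library kit does not mark strand, so reads there cannot be told apart. In DMSO it had the smallest ratio of highest to lowest stage mean of the 9 genes over the embryo stages. It stood at 16.5, 12.6 and 14.6 TPM in late two-cell embryos, 16.0 and 17.98 in morulae, 31.2 and 30.8 in the E4.5 ICM and 18.2 and 18.9 in 2iES cells. The ICM libraries were above all others, though the step from the morula (0.50, SE 0.17) did not reach a doubling. Nor did that from the two-cell stage to the morula (0.54, SE 0.15, adjusted p 0.0078, edgeR).

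With dTAG13 *Atp1b1* was at 54.3 and 53.6 TPM in the E4.5 ICM, both above the DMSO libraries, a log2 fold change of 0.73 (SE 0.04) that is under a doubling. At the other stages the groups overlapped. The log2 differences were -0.01 (SE 0.17, 95% interval -0.39 to 0.37, adjusted p 0.980, edgeR) at the late two-cell stage and -0.02 (SE 0.20, -0.46 to 0.42, adjusted p 0.979) in the morula. In 2iES cells it was -0.01 (SE 0.12, -0.30 to 0.28, adjusted p 0.951), so a doubling lay outside all 3 intervals.

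*Slc15a2* encodes PEPT2, a proton-coupled carrier of di- and tripeptides. It lies on the minus strand of chromosome 16 from 36750177 to 36784962 (ENSMUSG00000022899.9). In the DMSO libraries it was near the detection limit at every stage. It had 0.98, 0.07 and 0.28 TPM in late two-cell embryos, 0.27 and 0.02 in morulae, 0.70 and 0.54 in the E4.5 ICM and 0.24 and 0.67 in 2iES cells, and the stages overlapped. Its relative *Slc15a4* was higher from the morula on, with DMSO means of 3.87, 4.99 and 1.21 TPM.

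With dTAG13, *Slc15a2* in the E4.5 ICM stood at 34.4 and 34.7 TPM, from 808 and 818 counts against 27 and 17 in DMSO. The log2 fold change was 5.25 (SE 0.14), or 38.0-fold, and it ran from 5.00 to 5.55 over 13 other settings. In 2iES cells it was at 1.59 and 1.53 TPM, above the DMSO pair, a log2 fold change of 1.04 (SE 0.36). That value lies near the 2-fold limit, and the call was lost in some other settings. Without DMSO replicate 1 this value was 0.59, and without DMSO replicate 2 it was 1.61.

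At the late two-cell stage the dTAG13 libraries held 0.60, 1.37 and 1.59 TPM and overlapped DMSO (1.07, SE 0.58). In the morula *Slc15a2* had 1 to 12 counts in each library and was not tested. In the E4.5 ICM the transcripts that its reads were assigned to were shorter with dTAG13, though the DMSO estimates rest on 27 and 17 counts. At the late two-cell stage the lengths of the groups overlapped. The annotation lists 14 transcripts of 430 to 3994 bases, and the authors' mean transcript length was 1341 and 1307 bases in the dTAG13 ICM libraries, against 1877 and 1678 in DMSO. Its TPM is therefore higher than the same counts would give over the 3994-base transcript, while the fold change of counts is not affected.

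*Slc2a1* and *Slc2a3* encode the facilitative glucose transporters GLUT1 and GLUT3. *Slc2a1* occupies chromosome 4, plus strand, 119108711 to 119137983 (ENSMUSG00000028645.11), and *Slc2a3* chromosome 6, minus strand, 122727809 to 122801640 (ENSMUSG00000003153.10). Of the 12 measured Slc2a genes, *Slc2a3* had the highest DMSO level at all 4 stages, with means of 3.31, 24.6, 37.8 and 42.1 TPM in developmental order and then 2iES cells. Both genes rose from the late two-cell stage to the morula in edgeR's quasi-likelihood test, *Slc2a3* by 3.59 on the log2 scale (SE 0.19, adjusted p 9.42e-09) and *Slc2a1* by 3.19 (SE 0.31, adjusted p 1.67e-06).

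The pair moved in opposite directions in the E4.5 ICM. *Slc2a1* was at 12.2 and 12.4 TPM in DMSO and at 4.61 and 4.78 TPM with dTAG13, a log2 fold change of -1.45 (SE 0.09). *Slc2a3* was at 37.0 and 38.6 TPM in DMSO and at 63.3 TPM in both dTAG13 libraries, a log2 fold change of 0.71 (SE 0.03). Neither gene's groups overlapped, and only *Slc2a1* passed the fold limit of the call rule.

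At the other stages neither gene was called. Late two-cell embryos had *Slc2a1* at 1.26, 1.00 and 0.92 TPM in DMSO and at 0.55, 0.81 and 0.58 TPM after treatment, without overlap but from at most 69 counts (-0.55, SE 0.38, adjusted p 0.471, edgeR). In the morula the DMSO libraries were 10.5 and 4.42 TPM, on either side of the dTAG13 pair at 4.69 and 5.09 (-0.56, SE 0.32, adjusted p 0.473). Without DMSO replicate 1 that difference was 0.09 and without DMSO replicate 2 it was -1.01, so this comparison rests on 1 control library.

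In 2iES cells *Slc2a1* was at 11.0 and 10.1 TPM in DMSO and 8.22 and 9.51 with dTAG13, again without overlap (-0.30, SE 0.14, 95% interval -0.64 to 0.04, adjusted p 0.119, edgeR). *Slc2a3* differed by 0.31 (SE 0.22, adjusted p 0.497) at the late two-cell stage, 0.25 (SE 0.20, adjusted p 0.618) in the morula and -0.14 (SE 0.18, 95% interval -0.56 to 0.28, adjusted p 0.523) in 2iES cells. Its morula libraries did not overlap, with 26.96 and 22.2 TPM in DMSO and 29.8 and 29.7 with dTAG13.

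**Figure D3:**
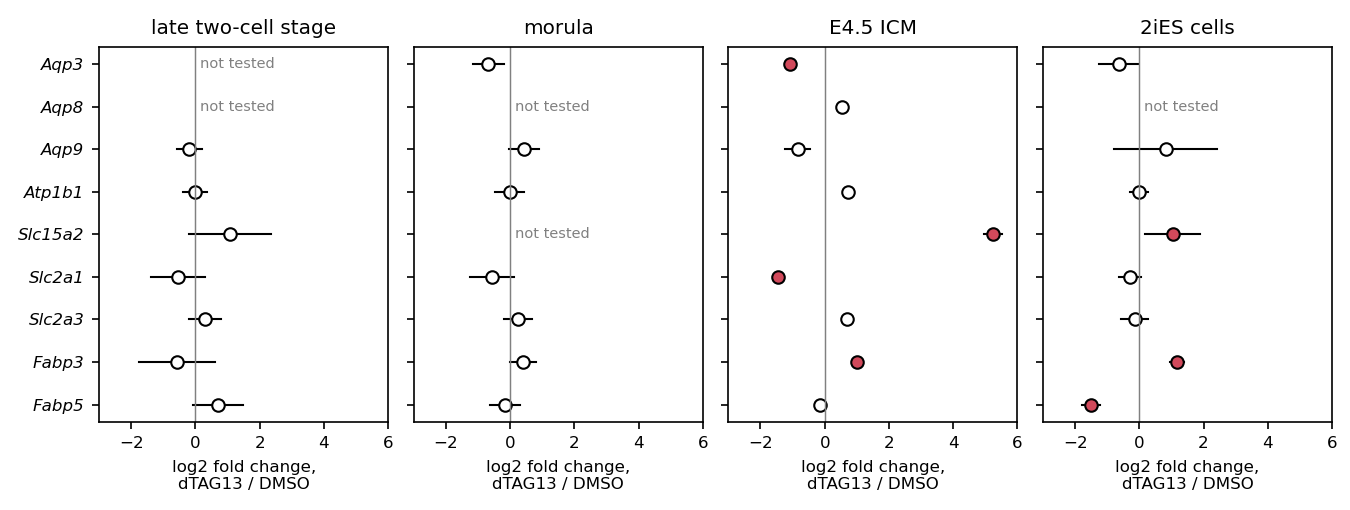
Log2 fold change of counts, dTAG13 over DMSO, of the 9 genes at each stage (points) with 95% intervals (lines, hidden behind the point where narrow); filled points passed the call rule. *Slc15a2* at 5.25 in the E4.5 ICM lies apart, and the filled points of *Slc2a1* and *Aqp3* lie below 0.

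The Fabp genes encode small cytosolic proteins that carry long-chain fatty acids. *Fabp3*, the heart type, occupies chromosome 4, plus strand, 130308595 to 130315463 (ENSMUSG00000028773.8), and *Fabp5*, the epidermal type, chromosome 3, plus strand, 10012548 to 10016607 (ENSMUSG00000027533.10). They were the most abundant members from the morula on. Of the 31-base words in the *Fabp3* transcript, 37.3% also occur in other annotated genes, mostly the pseudogene *Fabp3-ps1*, and for *Fabp5* the share is 9.21%. Genes on the other strand (*Gm10570* and *Zcchc17*) overlap 19.6% of the exonic bases of *Fabp3*, and *Gm12868* overlaps 2.99% of those of *Slc2a1*, with the same limit as for *Atp1b1*. Adding the counts of their named pseudogenes left the E4.5 ICM value of *Fabp3* at 1.01.

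*Fabp3* was at 3.06, 4.77 and 14.9 TPM in the DMSO late two-cell libraries. It was at 982 and 1226 TPM in morulae, 1294 and 1309 in the E4.5 ICM and 920.1 and 857 in 2iES cells. The late two-cell libraries lay far below all others, and in TPM the ICM was the highest of the later stages. On counts the later stages were not told apart, with log2 differences of -0.17 (SE 0.42) from the morula to the ICM and 0.07 (SE 0.42) from the ICM to 2iES cells, neither called.

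With dTAG13 *Fabp3* doubled in the E4.5 ICM, to 2698 and 2679.9 TPM, a log2 fold change of 1.01 (SE 0.02). That value lies at the 2-fold limit, and the call was lost with DESeq2 (1.00) and without DMSO replicate 1 (1.00), where it fell just short. In 2iES cells it was at 1835 and 1896 TPM, a log2 fold change of 1.16 (SE 0.09) that ran from 1.08 to 1.34 over 14 other settings. In the morula it was at 1521 and 1382 TPM, above both DMSO libraries (0.40, SE 0.19), and at the late two-cell stage at 5.49, 3.29 and 7.21 TPM, overlapping them.

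*Fabp5* rose by 3.96 (log2, SE 0.17, adjusted p 1.98e-09, edgeR) from the late two-cell stage to the morula in DMSO. It was at 25.6, 28.6 and 28.1 TPM in two-cell embryos, 400.0 and 278 in morulae, 334 and 341 in the E4.5 ICM and 191 and 178 in 2iES cells. The 2iES libraries were below those of the morula and the ICM, but the step from the ICM to 2iES cells was not called (-0.26, SE 0.17).

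In 2iES cells *Fabp5* was at 65.0 and 56.8 TPM with dTAG13, far below the DMSO pair, a log2 fold change of -1.51 (SE 0.11, adjusted p 1.31e-04, edgeR). It was called in all 14 other settings, from -1.62 to -1.33 and with adjusted p-values up to 0.0025. In the E4.5 ICM it was at 307 and 312 TPM, slightly below DMSO (-0.16, SE 0.03), and in the morula at 288 and 322 TPM, overlapping DMSO (-0.15, SE 0.22, 95% interval -0.62 to 0.32, adjusted p 0.808).

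At the late two-cell stage 1 of the 3 dTAG13 libraries, replicate 1, stood apart at 82.9 TPM while the others, at 29.6 and 28.4 TPM, were near the DMSO range. The log2 difference there was 0.69 (SE 0.35, adjusted p 0.299, edgeR) and 0.02 without that library.

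Whether the effect of dTAG13 differed between stages was tested for 6 members over the late two-cell stage, the morula and 2iES cells, with all 18 libraries in 1 edgeR fit. *Fabp5* was the single member called. Its effect in 2iES cells was lower than at the late two-cell stage by a log2 difference of 2.13 (SE 0.43, adjusted p 0.0016), where 15.2% of 21915 genes were called, and lower than in the morula by 1.38 (SE 0.46, adjusted p 0.0434), where 14.3% were. The difference from the morula did not pass with the replicate block (1.40, adjusted p 0.0525) or with library totals as the scaling (1.24, adjusted p 0.0724). Between the late two-cell stage and the morula 0 of the 6 were called, against 3.85% of genes, and 0 had an unadjusted p under 0.05. *Aqp8* is among the 6 but had 0 to 4 counts in each library of these stages, so it could not pass the call rule. The *Fabp5* difference from the late two-cell stage was 1.57 (SE 0.22) without the late two-cell library that stood apart.

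The other genes of these families, 52 in all, were read beside the members. At the late two-cell stage 0 of 29 tested were called by edgeR and in the morula 0 of 15, with DESeq2 also calling 0 and *Aqp11* alone having an unadjusted p under 0.05 at each. *Aqp11*, an intracellular aquaporin, was at 54.9, 49.1 and 56.8 TPM with dTAG13 in late two-cell embryos against 31.4, 28.1 and 23.8 (0.90, SE 0.14, adjusted p 0.0024), which is less than a doubling. Of 22 tested in the E4.5 ICM 7 were called, all higher, where 25.2% of all genes were called and 12.1% were higher. In 2iES cells it was 4 of 21, all higher, where 28.0% of all genes were called and 12.4% were higher.

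The 7 in the ICM included *Fabp2*, the intestinal fatty acid-binding protein, at 42.9 and 38.4 TPM with dTAG13 against 11.2 and 11.5 (1.80, SE 0.09). *Fxyd4*, a sodium pump regulator, was at 52.6 and 52.9 TPM against 26.6 and 24.6 (1.09, SE 0.10). *Aqp11*, *Fxyd6*, *Slc2a5* and *Slc9a7*, also among them, had mean levels of 1.07 to 1.71 TPM with dTAG13 and 0.20 to 0.75 TPM in DMSO.

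In 2iES cells the 4 included *Slc9a8* at 8.42 and 7.72 TPM against 2.35 and 2.93 (1.54, SE 0.19, adjusted p 8.19e-04, edgeR), as well as *Fxyd6* (2.27, SE 0.32, adjusted p 0.00135) and *Fxyd2* (1.64, SE 0.44, adjusted p 0.0191). *Slc9a8* is a Golgi sodium-hydrogen exchanger, and *Fxyd2* and *Fxyd6* are sodium pump regulators. The beta subunit *Atp1b3*, at 91.6 TPM on average in the DMSO ICM and 73.5 in DMSO 2iES cells, was more abundant than *Atp1b1* at both.

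Trophectoderm and epiblast markers differed with dTAG13 in the same E4.5 ICM libraries as the members. Of 12 trophectoderm markers, 9 of 11 tested were called higher with dTAG13, and their summed level was 954 TPM in both dTAG13 libraries against 100.0 to 107 in DMSO. The transcription factor *Cdx2* was at 1.78 to 2.57 TPM against 0.29 to 0.60, *Gata3* at 11.0 to 11.4 against 1.52 to 1.56, and the keratin *Krt8* at 268 to 273 against 39.3 to 42.6. *Krt18* was at 476 to 481 TPM against 22.8 to 24.9, so these keratins made up most of the dTAG13 sum. No trophectoderm marker was at 0 in either group.

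Of 12 epiblast markers 7 were called lower in the ICM, with sums of 628 to 633 TPM against 1150 to 1190. Of 12 primitive endoderm markers 1, *Cubn*, was called higher and 11 were not called, with sums of 2500 to 2520 TPM against 1620 to 1670. In 2iES cells the trophectoderm sums were 148 to 155 TPM against 123 to 150, with 1 of 9 tested markers called higher (*Gata2*) and 1 lower (*Eomes*), and *Elf5* at 0 in both DMSO libraries. There the primitive endoderm sums were 124 to 129 TPM against 160 to 200, with 3 of 8 tested markers called higher (*Cubn*, *Lamb1* and *Col4a1*), and 4 of 12 epiblast markers were called lower. The 12 endoderm markers were all called lower from the DMSO ICM to 2iES cells, as *Aqp8* was.

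In bulk RNA, fewer cells of a type and less RNA per cell cannot be told apart, and the part of trophectoderm or endoderm cells in the members' ICM values was not tested.

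**Figure D4:**
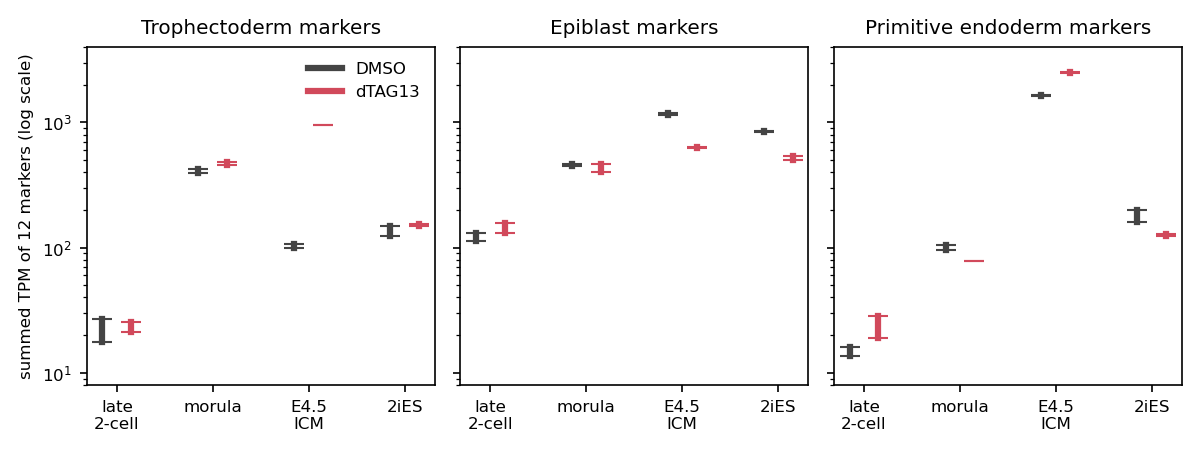
Summed TPM (log axis) of the 12 markers of each blastocyst lineage, from the lowest to the highest library of a group, DMSO in grey and dTAG13 in red. In the E4.5 ICM the trophectoderm sum is 954 TPM with dTAG13 and 100.0 to 107 in DMSO, while the epiblast sum is lower.

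The genes whose level followed each member most closely over the 18 libraries were sought among 11396 protein-coding genes with a mean of at least 1 TPM, by Pearson's r of log2(TPM + 1). For *Slc15a2* they were *Ndst2* (0.951), *Selenop* (0.929) and *Tmem176b* (0.927). *Aqp8* was matched most closely by *Pth1r* (0.9995), the parathyroid hormone receptor. For the others the closest were *Rpp21* for *Aqp3* (0.989), *Trim43b* for *Aqp9* (0.992), *Podxl* for *Atp1b1* (0.973), *Eif4ebp1* for *Slc2a1* (0.968), *Atp5g2* for *Slc2a3* (0.982), *Pqlc3* for *Fabp3* (0.992) and *Ocel1* for *Fabp5* (0.976). These r describe 18 points that share stage, depth and preparation, and mostly order the 4 stages. *Slc15a2* differs in this, as its dTAG13 E4.5 ICM libraries (34.4 and 34.7 TPM) stood far above all others and weigh most in its r.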

How the data were processed

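RNA was measured in 18 libraries with an unstranded full-length cDNA kit. The authors trimmed reads (Trimmomatic 0.39, per the submitters' processing notes), aligned them with STAR and estimated gene and isoform levels with RSEM, and deposited per library the expected counts, TPM and FPKM. The deposited expected counts are estimates of reads per gene and were rounded to whole numbers here. The deposited TPM and FPKM are length-scaled levels, and FPKM served only for the limit on low levels. IDs without their version matched GENCODE M21 for 55144 of 55385 genes. Other data types of the series were not used here.

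Library totals of 9457933 to 27660132 set the precision. Counts of 0 allow up to 3 counts, which covers counting error only. Each stage was fitted alone with edgeR 4.0.16 (quasi-likelihood test, TMM, R 4.3.3, limma 3.58.1), with Benjamini-Hochberg adjustment over all genes tested. A count filter came first. It kept a gene whose raw count reached 10 in a number of libraries equal to the smaller group's size or more. Stage steps used the DMSO libraries and stage differences of effect all 18. A call needed an adjusted p under 0.05, a fold change of 2 and a mean FPKM of 1 in 1 of the groups. The scripts were tested on simulated data. Alternatives were DESeq2 1.42.0, 3 other scalings, no count filter, the FPKM limit over all libraries, 1 fit of all libraries, pooled pseudogenes, a replicate block and leaving out each library.

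The members and lists were chosen with earlier results of these data known. Named are the 9 members, the called genes of their families (values of 1 are not reported here), and the gene most like each member in pattern (for *Slc15a2*, the closest 3).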

Additional observations from a re-analysis of the deposited data

Results flagged for a closer look

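The effect of dTAG13 on *Fabp5* differed between stages by a test of the difference itself. Against 2iES cells it was higher by 2.13 (log2) at the late two-cell stage and by 1.38 in the morula, with adjusted p-values of 0.0016 and 0.0434 in edgeR's quasi-likelihood test. The difference from the morula did not pass with the replicate block (adjusted p 0.0525) or with library totals (adjusted p 0.0724). The 3 late two-cell dTAG13 libraries (82.9, 29.6 and 28.4 TPM) lay within or above the DMSO range there of 25.6 to 28.6 TPM, and both 2iES libraries lay below theirs.

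*Aqp9* was above the DMSO libraries in TPM in both dTAG13 morula libraries and below them in both dTAG13 ICM libraries. The log2 ratio of mean TPM, dTAG13 over DMSO, was 0.71 in the morula and -0.33 in the ICM. On counts the values were 0.44, with a 95% interval of -0.02 to 0.90 and not passing, and -0.84. The fitted difference of the count-based effects was 1.34 (log2, SE 0.50) and was not called, so the effects are not shown to differ. Mean transcript length also differed between these groups, from 2159 to 2307 bases in DMSO and 1850 to 1869 with dTAG13 in the morula, and from 2646 to 2659 and 1927 to 2078 in the ICM.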

How the results depend on the processing

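Over 112 alternative values of the counts of called members, 106 stayed within 1.5 times. From the morula to the E4.5 ICM in DMSO the count of 3 ran from 1 to 3 when 1 library was left out, and from the ICM to 2iES cells the count of 2 ran from 1 to 2. Without either ICM DMSO library *Aqp8* no longer passed the count filter, and *Aqp3* lost its call from the morula to the ICM. *Fabp5* was the only member whose effect differed between the morula and 2iES cells, and 0 members did so with library totals as the scaling and 0 with the replicate block, against 1 in the chosen fit. Of 741 values for single genes 29 changed sign in another fit, none of which passed the threshold in either fit. That count leaves out ratios of mean TPM, some of which also differed in sign from the counts. Late two-cell *Aqp9* was -0.19 on counts and 0.10 by TPM, and late two-cell *Atp1b1* -0.01 and 0.06. In the E4.5 ICM the *Aqp3* call was lost with upper-quartile scaling (-0.98). Over 13 alternatives there, *Slc15a2* ran from 5.00 to 5.55 and *Slc2a1* from -1.52 to -1.35.

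The pairing of libraries by replicate number was checked by the correlation of deviations from the group means, which was 0.08, 0.12 and 0.17 at the late two-cell stage, 0.02 in the morula, 0.02 in the ICM and -0.20 in 2iES cells, so the numbers were not taken as pairs. With the replicate block the counts of called members were 0, 0, 4 and 3 in this order, as without it. Crossing the pairs in 2iES cells, chosen after seeing the data, also gave 3. With 2 libraries a group an SE rests largely on the spread shared across genes.

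The sign changes between fits, without ratios of mean TPM, were these, as log2 values. The late two-cell *Atp1b1* difference (-0.01) was 0.0019 with DESeq2 size factors, 0.0643 with library totals, 0.109 with upper-quartile scaling and -0.156 to 0.116 without 1 library. In the morula it (-0.02) was 0.0043 with DESeq2, 0.0628 in the fit of all libraries and -0.0926 to 0.093 without 1 library. In 2iES cells it (-0.01) was 0.0314 with library totals, 0.172 with upper-quartile scaling, 0.0475 in the fit of all libraries and -0.0849 to 0.0125 without 1 library. Without 1 library, late two-cell *Fabp3* ran from -0.955 to 0.342, morula *Slc2a1* from -1.008 to 0.0851, morula *Fabp5* from -0.403 to 0.159, 2iES *Aqp9* from -0.728 to 1.468 and 2iES *Slc2a3* from -0.409 to 0.122. Upper-quartile scaling gave 0.0408 for *Slc2a3* in 2iES cells, -0.0376 for its step from the morula to the ICM and 0.0078 for the step of *Atp1b1* from the ICM to 2iES cells. With library totals, the late two-cell minus morula effects were 0.149 for *Atp1b1*, 0.16 for *Slc2a1* and 0.204 for *Slc2a3*, and the *Atp1b1* effects against 2iES cells were 0.033 for the late two-cell stage and -0.116 for the morula. Without late two-cell dTAG13 replicate 1, late two-cell minus morula was 0.066 for *Slc2a1* and 0.241 for *Slc2a3*, and morula minus 2iES was -0.0322 for *Atp1b1*.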
